A study of Oryza sativa with 3 samples.

Results

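The loci described here are the 123 rice loci whose root transcripts gave the deepest falls under vanadium among those measured in both conditions. They are called the strongly lowered loci below. They were chosen from 29689 loci with at least 1 probe on the array, of which 19378 had their chosen probe well above background in both channels on all 3 arrays. The roots came from 6-day-old seedlings of the rice cultivar TN-67, given either water or 1 mM of the transition metal vanadium, with 3 samples of each kind that the labels call biological replicates. Each array carried the treated RNA in Cy5 (red) and the water RNA in Cy3 (green) of the same replicate number. The labels give no exposure time, no number of seedlings in a sample and no genetic change in either group. The dyes were never swapped, so a dye effect of a single probe and an effect of vanadium cannot be told apart. Fewer cells of a type and less RNA per cell cannot be told apart in these whole-root samples either.

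A root epidermis and cortex take up water and mineral nutrients through families of membrane proteins, among them channels for silicon and water, ZIP transporters for zinc and related metals, and carriers for potassium and sodium. Grasses such as rice also make nicotianamine, a metal chelator and a precursor of the siderophores with which they collect iron. Class III peroxidases are secreted enzymes of the plant cell wall that are encoded by large gene families, often in tandem rows. These families supplied the lists of loci referred to below.

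The choice used the ratio itself. For every spot, the local background was subtracted from the median signal, values under 20 were set to 20, and the log2 ratio of vanadium over water was centred on its median over all locus probes of the array. Where a locus had several probes, the brightest was taken. A locus was chosen if its mean log2 ratio over the 3 arrays was -1.3 or less, with -0.8 or less on every array, and if both channels were well above background throughout. These limits were met by 0.635% of the 19378 loci. The fall is therefore what chose the loci, and its values are given as a description without a test. The mirror limits upward, a mean of 1.3 or more with 0.8 or more on every array, were met by 1512 loci. The median ratio of the 19378 loci was 0.25 on this scale, so a locus at -1.3 lay further below a typical measured locus than below the centre of its array.

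Just inside the limit, the mean ratio was -1.3001 ± 0.39 (SD, n = 3 arrays) at Os01g0601200 and -1.303 ± 0.47 at Os05g0472600. The next inside were -1.31 at Os06g0714600, Os05g0136900 and Os03g0200200. Just outside it, with the other conditions met, the mean was -1.298 at Os02g0538400 and -1.296 at Os08g0154000. The following loci outside were Os06g0694600, Os03g0720800 and Os04g0340800, at -1.29 each. The SD over arrays of each of these 10 loci was larger than the gap across the limit. Another 9 loci had a low enough mean and missed on an array, 3 of them on each replicate, with Os10g0547500 the lowest at -1.51.

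Over the 123 loci the mean log2 ratio ran from -2.43 up to the limit of -1.3, with a median of -1.51. The medians of the single arrays were -1.65, -1.54 and -1.44 for replicates 1, 2 and 3. On the scale that chose the loci, the mean fall was 4-fold or more at 11 loci. At a further 53 the mean lay between -2 and -1.5, and at 59 between -1.5 and the limit. A ratio of -1 or less, a halving or more, was seen on every array at 105 loci. On every array the ratio was at or below -1.3 at 48 loci.

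**Figure D1:**
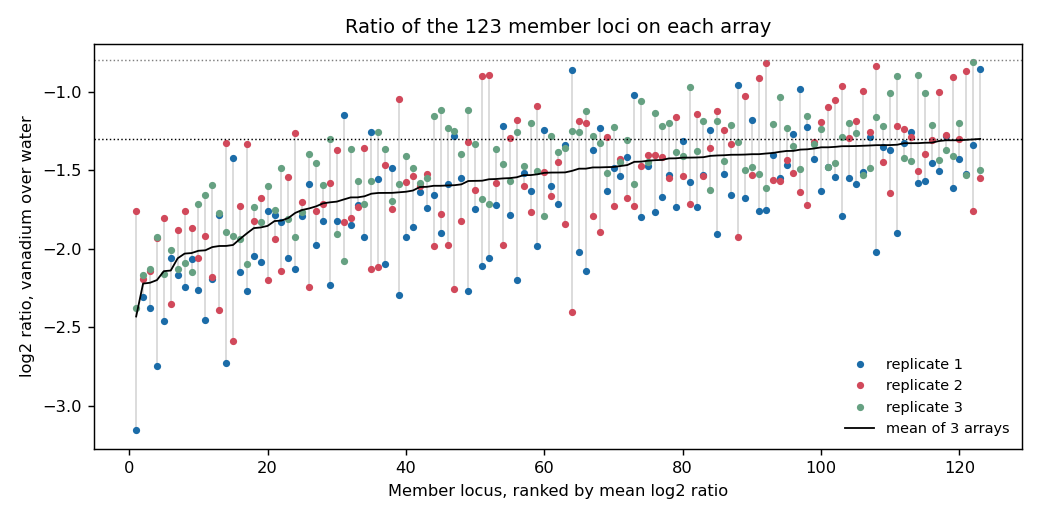
Log2 ratio of vanadium over water (y axis) of the 123 strongly lowered loci, ranked by their mean (x axis), with 1 point for each of the 3 arrays, a grey line from the lowest to the highest array and a black line for the mean. The dotted lines mark the limits of -1.3 for the mean and -0.8 for a single array; the medians of the arrays are -1.65, -1.54 and -1.44, and the gap between the highest and the lowest array of a locus has a median of 0.53, reaching the whole range of the means (1.13) at 9 loci.

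The lowest mean was at Os04g0515900. Its background-subtracted water signal was 1163.5, 1578 and 2867.5 on replicates 1, 2 and 3, and its vanadium signal was 60.5, 353.5 and 371.5. The log2 ratios were -3.16, -1.76 and -2.38, with a mean of -2.43 ± 0.70 (SD, n = 3 arrays), which is 5.39-fold lower. The fall at this locus was large on every array but of uneven depth, and the vanadium signal of replicate 1 stood apart from the other two.

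The following loci were more even. At Os07g0147700 the water signal was 331, 422 and 436 and the vanadium signal 31, 70 and 65.5, with ratios of -2.31, -2.19 and -2.17. At Os11g0270000 the water signal was 667, 740 and 950.5 and the vanadium signal 59.5, 127 and 146.5, with ratios of -2.38, -2.14 and -2.13. Both loci thus fell by about the same factor in each pair of roots, with means of -2.22 ± 0.08 and -2.22 ± 0.14. At Os07g0677900 the ratios were -2.74, -1.93 and -1.92 (mean -2.20 ± 0.47). Its vanadium signal of 20 on replicate 1 was the floor, so the first of these ratios has no exact value.

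At Os02g0667500 the water signal was 1823, 3356 and 4332.5 and the vanadium signal 153.5, 728 and 652.5. The ratios of -2.46, -1.80 and -2.16 gave a mean of -2.14 ± 0.33. At Os04g0644100 the ratios were -2.06, -2.35 and -2.01 (mean -2.14 ± 0.18). At both loci the lowest water signal exceeded the highest vanadium signal. Each channel of an array was then scaled to the median of the 19378 measured loci. On that scale the same held at 122 of the 123 loci, and at 31.2% of all measured loci. Nothing is read from the count of 122, since the ratio chose the loci.

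Means of -2 or less were also found at Os04g0542000 (-2.06 ± 0.16), Os04g0349700 (-2.03 ± 0.25) and Os02g0786900 (-2.03 ± 0.14). Os07g0677300 followed at -2.01 ± 0.28 and Os04g0554200 at -2.01 ± 0.41 (SD, n = 3 arrays). Of the 11 loci that fell 4-fold or more, Os07g0677300 was the brightest in water, at 7741, 8460 and 10164, against 748, 1538 and 2085 under vanadium, so its fall was measured far above background.

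Ranks 12 to 20 lay between -1.99 and -1.85. They were Os05g0582000 (-1.99), Os06g0701700 (-1.98), Os10g0165300 (-1.98), Os03g0297600 (-1.98), Os01g0863800 (-1.94), Os04g0447800 (-1.90), Os07g0107100 (-1.87), Os02g0684100 (-1.86) and Os09g0367900 (-1.85). Within this run Os10g0165300 and Os03g0297600 were uneven in opposite ways. Os10g0165300 was lowest on replicate 1, with ratios of -2.73, -1.32 and -1.89, and Os03g0297600 on replicate 2, with -1.42, -2.59 and -1.92.

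The strongly lowered loci differed in how evenly they fell. The SD of the ratio over arrays had a median of 0.28, against 0.17 over all 19378 measured loci. It was smallest at Os03g0310000, with ratios of -1.64, -1.60 and -1.58, at Os05g0191700, with -1.47, -1.40 and -1.44, and at Os12g0129100, with -1.79, -1.71 and -1.76. The vanadium signal of Os05g0191700 was at the floor of 20 on replicate 1. The SD was largest at Os03g0307300, at 0.80, followed by Os10g0165300 and Os04g0515900. At Os03g0307300 the ratios were -0.86, -2.40 and -1.25.

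At 71 loci (57.7%) the array of replicate 1 gave the lowest of the 3 ratios, at 41 that of replicate 2 and at 11 that of replicate 3. Over all measured loci replicate 1 was lowest at 39.4%, replicate 2 at 36.7% and replicate 3 at 24.0%. The array of replicate 1 was on a slide of its own and the other two shared a slide, so slide 1 and replicate 1 cannot be told apart. Over replicates 2 and 3 alone, the median of the 123 loci was -1.47. The level under vanadium varied more between arrays than the level in water at 93 of the 123 loci. The share of all measured loci that did so is not given here. The choice favours a low signal under vanadium, whose median was 136 over the 123 loci and 761 over all measured loci. The part of low signal in this spread was not tested. The median SD of the level over arrays was 0.32 under vanadium and 0.20 in water on the log2 scale, against 0.25 and 0.21 over all measured loci.

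In water, 7 of the 123 loci (5.69%) varied more than 2-fold between arrays after scaling, beside 5.17% of all measured loci. Under vanadium, at the lower signals given above, 33 (26.8%) did, beside 11.3%. Os10g0361000 had the widest range in water, with signals of 1693.5, 689.5 and 410.5, and its vanadium signal followed at 261, 229.5 and 115.5. The ratio at that locus nevertheless stayed close, at -1.59, -1.19 and -1.26. Loci listed as markers of green shoot tissue also had their highest summed water signal on replicate 1, at 2948 against 804 and 717.5, with 232, 570 and 440 under vanadium. Of the 2948, Os09g0346500 gave 1810.5, Os01g0600900 gave 600 and Os12g0291100 gave 268, each highest in water on that array. Os12g0274700 and Os12g0292400 were not highest there. None of the 5 was well above background in both channels on all arrays, so none entered the choice of loci, and none of the 3 markers of grain remains did. The limma fit asked this of at least 1 channel. There 3 of the 5 were tested and none was called, and no grain marker was tested. The part of these tissues in the falls was not tested. All 3 loci listed for root tissue were measured, with water signals of 193307, 103309 and 100437 at Os02g0662000, whose mean ratio was 1.66. Limma called 2 of the 3 lower and 1 higher, beside 21.3% lower and 29.7% higher of all tested loci. Of the lower ones, Os02g0745100 is among the 123.

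**Figure D2:**
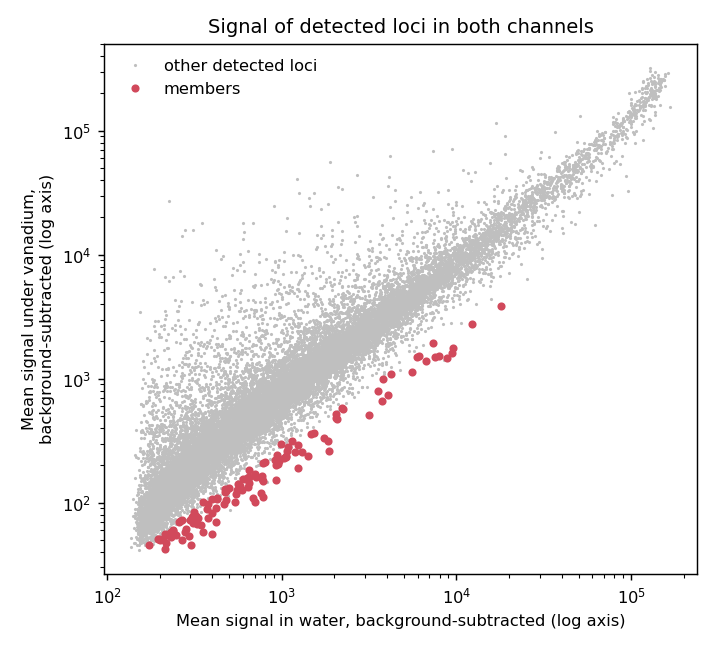
Mean background-subtracted signal over 3 arrays in water (x axis, log scale) and under vanadium (y axis, log scale) for the 19378 measured loci (grey) and the 123 strongly lowered loci (red). The red points run along the lower edge of the cloud over most of its range, from water signals of 174 to 17878.5, and none reaches the brightest end.

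The falls were found at all signal strengths but the highest. The signal depends on the probe and does not rank transcripts, but it sets how far a value stood above background. The mean water signal had a median of 644 over the 123 loci and 880.5 over all measured loci. Of the 123 loci, 51 (41.5%) had a mean water signal under 500, 49 lay between 500 and 2000, and 23 (18.7%) reached 2000 or more. Over all measured loci these shares were 34.4%, 35.2% and 30.4%. None of the 123 was among the brightest 5% in water, which began at 18204. In the 3 ranges the median fall was -1.48, -1.55 and -1.53 on the scale that chose the loci, whose limit holds these values close together. The highest mean water signals were at Os02g0745100, Os07g0678400 and Os02g0684100, and the lowest at Os05g0361200, Os11g0479100 and Os01g0941800.

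At the dim end the water channel carried an offset that local background did not remove. Negative control spots, of which each array had 153, kept a median signal of 52, 97 and 93 in water on replicates 1, 2 and 3 after background subtraction, and of 3, 4.5 and 4 under vanadium. On the ratio scale used for the choice, the 5837 loci well above background in neither channel on any array had median ratios of -0.52, -2.01 and -1.79. On replicates 2 and 3 these loci without measurable signal thus lay lower than the strongly lowered loci, whose medians there were -1.54 and -1.44. A further 989 loci passed both limits on the ratio but not the condition on background, and at 792 of these the vanadium channel was well above background on no array. On replicate 1 the vanadium signal was at the floor at 6 of the 123 loci, and on the other arrays at none. The locus with the lowest mean water signal, Os05g0361200, had water signals of 138, 189.5 and 194.5, close to that offset, and vanadium signals of 25.5, 61 and 49.

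The ratios were therefore recomputed on 3 other scales. With the negative control signal of each channel subtracted as well, the median over the 123 loci was -1.81, all 123 stayed at -1 or less, and 118 at -1.3 or less. With the scanner software's processed signals, centred on the array median, the median was -1.82, again with 123 at -1 or less and 114 at -1.3 or less. With normexp background correction, an offset of 50 and loess normalization, the median was -1.32, with 90 at -1 or less and 63 at -1.3 or less. The direction was downward at every one of the 123 loci on all 4 scales. Nothing is read from this or from the counts, since all scales use the same spots and the ratio chose the loci. Under both limits of the choice, 275, 245 and 120 (outlier spots kept) of all measured loci passed on these 3 scales.

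Negative control subtraction and normexp with loess parted most at the dim loci. Where the mean water signal was under 500, the median was -1.59 with the negative control subtracted and -0.87 with normexp and loess. On the scale that chose the loci it was -1.48. Where the water signal was 2000 or more, these were -2.02 and -1.89, against -1.53. Bright loci thus moved as well. The median-centred scales each take their own median over all locus probes, and the part of that centre in the deeper values was not tested. The offset of 50 is added to both channels in the normexp scale, which pulls ratios of dim spots toward 0 by its construction. Falls of -1.3 or less on all 4 scales were found at 63 loci, made up of 23 of 23 bright loci, 38 of 49 in the middle range and 2 of 51 dim loci. The 2 dim loci were Os07g0147700 and Os01g0863800, singled out here after their values were seen.

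**Figure D3:**
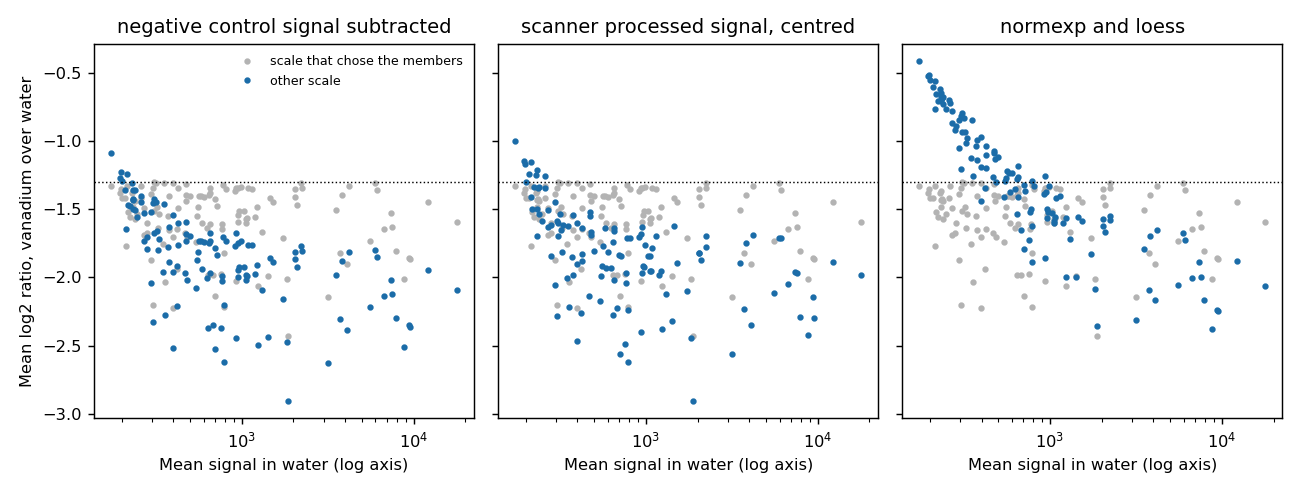
Mean log2 ratio of vanadium over water (y axis) against the mean water signal (x axis, log scale) for the 123 strongly lowered loci, on the scale that chose them (grey) and on 1 other scale in each panel (blue); the dotted line is the limit of -1.3. With negative control subtraction and with the scanner signals the bright loci lie lower than on the first scale, and with normexp and loess the dim loci lie nearer 0, up to -0.41.

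In the fit across all loci on the normexp and loess scale, limma called 21.3% of 21094 tested loci lower at an adjusted p under 0.05. All 123 strongly lowered loci were among them, which their choice by the same ratio brings with it. When the 6 channels were fitted without the pairing of treated and water RNA on an array, 0.996% of the tested loci were called lower and 68 of the 123 were among them.

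Some of the loci had further probes, whose position relative to the chosen probe was not examined here and which may overlap it. They share the RNA and the arrays with the probe that chose the locus, so they are no independent sample. Of the 123 loci, 91 had 1 probe and 32 had further ones, 50 in all. Well above background in both channels on all arrays were 35 of these, at 20 loci. All 35 had a mean ratio of -1 or less and were below 0 on every array, with a range from -2.15 to -1.22 and a median of -1.66. The limits used for the choice were met by 29 of the 35. None had a mean above -0.5. The other 15 probes, too dim on at least 1 array, ranged from -2.35 to -0.84, a range that also holds loci without measurable signal.

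**Figure D4:**
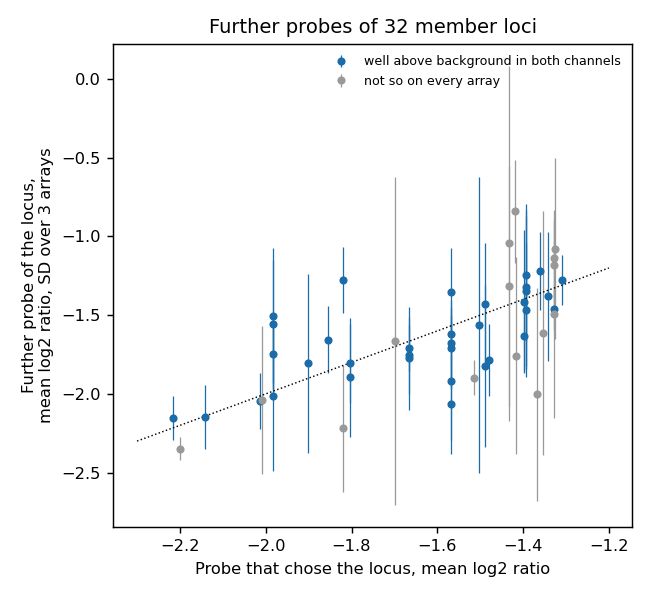
Mean log2 ratio of further probes (y axis, with SD over 3 arrays) against that of the probe that chose the locus (x axis) for the 32 strongly lowered loci with several probes, with the line of equality dotted. The 35 probes well above background in both channels (blue) lie between -2.15 and -1.22, on both sides of the line.

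Several loci had many probes. Os08g0102700 had 6 further probes above background, with means of -2.06, -1.92, -1.71, -1.68, -1.62 and -1.35 around its chosen value of -1.57. At Os03g0439500 4 further probes gave -1.47, -1.35, -1.32 and -1.25 against -1.39. Replicate 2 had the highest ratio on each of these probes, as on the chosen one. At Os06g0701700 4 further probes gave -2.01, -1.75, -1.56 and -1.502 against -1.98, and on each of them replicate 2 was the lowest. Os02g0726300 was even, with 3 further probes at -1.77, -1.76 and -1.71 against -1.67.

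Probes of the 123 loci were designed to mRNA sequences at 85 loci (69.1%), and at the other 38 to sequences that the array's names mark as COMBINER_EST (31 loci) or COMBINER (7 loci). Over all measured loci mRNA probes made up 74.6%. By the array's own names, 81 of the 123 probes (65.9%) lie in coding sequence and 3′ UTR, against 69.2% of all measured loci. All 123 probes had 1 spot on each array.

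The locus numbers name the chromosome and follow the order of genes along it. Members of the set were found on all 12 chromosomes. Their share of the measured loci was lowest on chromosome 3, with 9 of 2566 (0.351%), and highest on chromosome 11, with 12 of 1015 (1.18%). The largest counts were 16 on chromosome 2 and 14 on chromosome 5.

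Among the 123 loci, 16 (13.0%) had another one of the set within 2000 in locus number, in 7 groups. Of the other measured loci 8.29% had one of the set that near. Cross-hybridisation between the neighbours was not tested, so falls within a group may not be separate measurements. Beyond the groups on chromosomes 5, 7 and 11 shown in the plot of neighbouring loci, the pairs were Os01g0823200 (-1.35) with Os01g0824900 (-1.34), Os07g0647600 (-1.54) with Os07g0649300 (-1.37), Os10g0422600 (-1.34) with Os10g0422800 (-1.67), and Os11g0479100 (-1.38) with Os11g0479400 (-1.40).

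On chromosome 11, Os11g0269900, Os11g0270000 and Os11g0270500 fell together. The ratios of Os11g0269900 were -1.37, -1.79 and -1.28, and those of Os11g0270500 were -1.52, -1.60 and -1.47. Between them Os11g0270000 reached the deeper mean of -2.22 given above, and its further probe gave -2.15. The 2 other measured loci within that reach, Os11g0270700 and Os11g0271100, stood at -0.16 and -0.45.

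On chromosome 7, Os07g0677300, Os07g0677900 and Os07g0678400 lay in and beside a row of loci listed as class III peroxidases. Os07g0678400 had water signals of 16902, 9772.5 and 9965 and vanadium signals of 3859.5, 2235.5 and 2233.5, with ratios of -1.02, -1.73 and -1.59. Measured loci of the row did not move as one: Os07g0676900 was at -1.14 ± 0.26 (SD, n = 3 arrays), Os07g0677100 at 0.28 ± 0.18 and Os07g0677200 at 0.42 ± 0.51. Of the 7 peroxidase loci listed, 5 were tested by limma. It called 2 lower, Os07g0677300 and Os07g0676900, and 3 not, beside 21.3% called lower of all tested loci. The call at Os07g0677300 comes with its choice by the ratio. Within reach of this group of 3, the 15 other measured loci had a median ratio of 0.23.

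**Figure D5:**
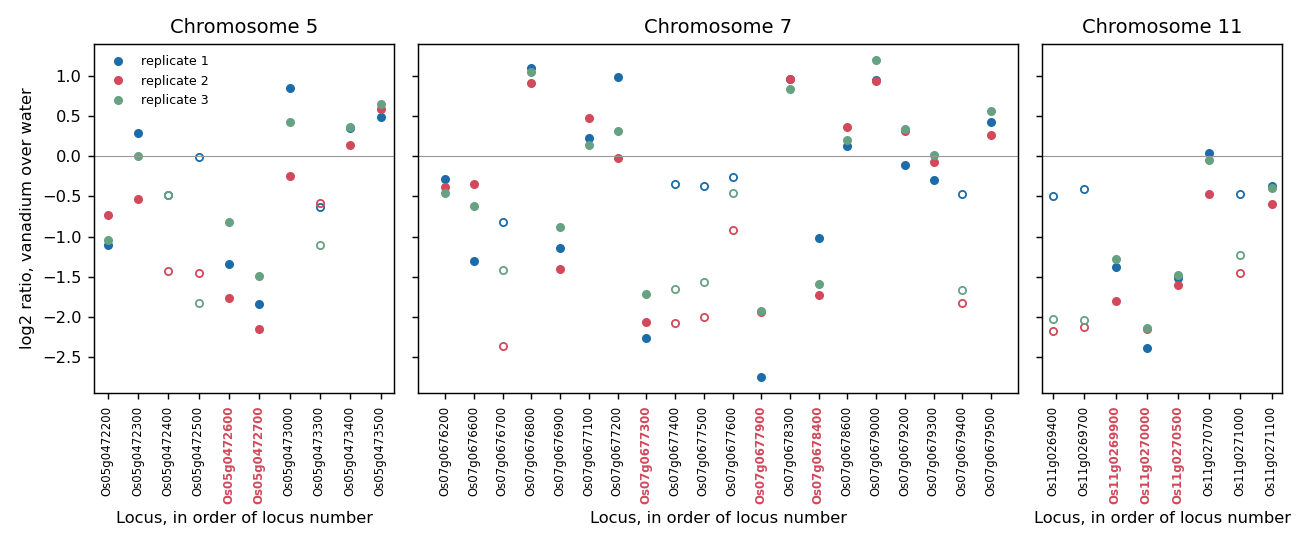
Log2 ratio of vanadium over water (y axis) on the 3 arrays for loci in order of locus number (x axis) around 3 groups of strongly lowered loci, whose names are in red; filled points are loci well above background in both channels on all arrays and open points are not. On chromosome 11 the filled neighbours Os11g0270700 and Os11g0271100 lie at -0.16 and -0.45, well above the red loci.

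Of the strongly lowered loci, 5 fell into lists of ion uptake and peroxidase loci that were written from general knowledge of rice locus numbers. The array files give no gene names or functions, and the reference table used here does not hold these locus numbers, so such a listing is not an annotation of the data. Apart from the peroxidase locus these were Os02g0745100, listed for silicon transport, Os03g0307300, listed for iron acquisition, Os05g0472700, listed as a ZIP transporter, and Os06g0701700, listed for potassium and sodium transport. The lists of ZIP transporters and of potassium and sodium transport were written after the strongly lowered loci were known. Limma called each of the 5 loci lower, which their choice by the ratio brings with it. The limma counts given for their lists include these calls.

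Os02g0745100 had the highest water signal of all 123 loci, at 16959.5, 17253 and 19423, against 3241, 2736 and 5506 under vanadium. Its ratios were -1.28, -2.26 and -1.25 (mean -1.59 ± 0.57, SD, n = 3 arrays). The signal under vanadium was below that in water on all arrays with a wide gap, and the fall was deepest on replicate 2. On the other scales it was -2.10 with negative control subtraction, -1.98 with the scanner signals and -2.07 with loess. Of the 6 loci listed for silicon and metal transport limma called 4 lower, none higher and 2 not, where 21.3% of all tested loci were called lower. Their median was -0.42 on the loess scale, beside 0.02 over all tested loci.

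Os03g0307300 had water signals of 2686.5, 3937 and 4005 and vanadium signals of 685, 565 and 1137. Its mean of -1.504 ± 0.80 was the least even of the 123, and its further probe gave -0.87, -2.63 and -1.18, the same order of arrays. Of 9 tested loci listed for iron acquisition, limma called 7 lower, none higher and 2 not, beside 21.3% lower of all tested loci. Their median was -0.76, beside 0.02 over all tested loci. Among the 7, Os01g0952800, Os07g0689600 and Os11g0134900 were not well above background under vanadium on every array. They entered the fit through water, where they were higher. The call at Os03g0307300 comes with its choice by the ratio, so nothing is read from this count. On the scale that chose the set, 6 of the list were well above background in both channels. The median of these was -0.53, beside 0.25 over all measured loci.

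Os05g0472700 had water signals of 717, 617.5 and 1020 and vanadium signals of 93.5, 106 and 245, with ratios of -1.83, -2.14 and -1.49. Its neighbour Os05g0472600 had ratios of -1.34, -1.76 and -0.81. The order of the arrays was the same in both. Another probe of Os05g0472700 above background gave -1.28, and there replicate 1 was the lowest. Of 9 tested ZIP loci limma called 4 lower and 3 higher, with a median of -0.16, beside 21.3% lower and 29.7% higher of all tested loci. Its loci Os07g0232800 and Os05g0198400 stood at 1.93 ± 0.39 and 1.72 ± 0.38 (SD, n = 3 arrays).

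Os06g0701700 had water signals of 765.5, 566 and 713.5 and vanadium signals of 103, 82 and 140.5, with ratios of -1.79, -2.39 and -1.77. It was the 1 locus of 5 tested in its list that limma called, beside 21.3% called lower and 29.7% higher of all tested loci. That call comes with its choice by the ratio, and the other tested loci of the list were not called. The median of the list was -0.03 on the loess scale, beside 0.02 over all tested loci. All 4 of these ion-related loci fell deepest on replicate 2. Over the 4 ion lists, 19 of 25 measured loci had their lowest ratio on replicate 2, as had 36.7% of all measured loci. These are the ion lists that hold a strongly lowered locus, 2 of them written after those loci were known. Of the 4 measured loci listed for nitrate and ammonium uptake, 1 was lowest on replicate 2 and 3 on replicate 1.

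Lists of aquaporins and of nitrate and ammonium uptake held none of the 123 loci. For the aquaporins the size depended on the scale: the median of 14 measured loci was -0.07 on the scale that chose the set, beside 0.25 over all measured loci, and -0.68 on the loess scale, beside 0.02 over all tested loci. On the loess scale limma called 12 of 14 lower and 1 higher, where it called 21.3% of all tested loci lower and 29.7% higher. Of 5 tested loci listed for nitrate and ammonium uptake 1 was called lower and none higher, beside the same shares of all tested loci. The one called, Os02g0620600, was not well above background under vanadium on replicate 1. It entered the fit through water, where it was higher, so nothing is read from its call. The 4 loci measured in both channels were not called.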

How the data were processed

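Roots of vanadium-treated and water-treated seedlings were compared on 3 two-channel Agilent arrays. The deposited array files hold spot and background intensity in both channels, made with Agilent Feature Extraction 10.7.1.1 per the file headers, and flags for spots well above background. Those deposited files also give the scanner software's processed intensity and a log10 ratio, red over green. A separate deposited table of log2 values matched log2 of the processed red over the processed green intensity at 99.995% or more of single-spot probes on each array, within 0.001, so scale and direction were settled; its medians were -0.05, -0.19 and -0.21, so it was not centred. Further steps by the authors: not given in the sources used here.

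Python 3.11.15 was used to compute the ratio that chose the loci from median signals. The fit across loci used normexp with an offset of 50, loess, and limma 3.58.1 in R 4.3.3 (lmFit and eBayes against 0, 2-sided, Benjamini-Hochberg threshold 0.05). Outlier spots, 1090, 401 and 306 per array, were left out there, no spot was saturated, and a probe had to be well above background on all arrays in either channel and present on all 3. The fit across loci, and not the choice of loci, was tested on simulated data. The ratio is within an array, where treated and water RNA of a replicate are paired. Precision is limited by the number of arrays, 3.

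The loci, lists and tests were chosen with earlier results of these data known. Named were the 20 lowest means, the 3 largest and 3 smallest SDs, the 3 brightest and 3 dimmest in water, the 5 nearest each side of the limit, loci within 2000 in number of another, and those in lists, with exceptions stated. The reference table (RefSeq) gives no name by these locus numbers, and no sequence of the loci was used here.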

Additional observations from a re-analysis of the deposited data

How the results depend on the processing

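The choice of loci depended on the scale. Against 123 loci here, the same limits gave 238 with a floor of 100, 385 with the scanner's processed signals uncentred and with the authors' value table, 245 with those signals centred, 278 with detection asked of water only, and 275 with the negative control signal subtracted, an alternative chosen after seeing the data. Of the 123, these kept 93, 119, 119, 112, 123 and 115. With loess and outlier spots kept 120 loci passed, of which 64 were shared, and with normexp and median centring 154, of which 74 were shared. The median ratio over the 123 was -1.73 with a floor of 100, -1.32 with loess, -1.97 with the uncentred scanner signals and the authors' table, -1.82 with centred ones and -1.81 with negative control subtraction. The detection setting leaves it as it is. Leaving out 1 replicate gave 138 to 183 loci, of which 90 to 110 were shared, and medians of -1.59 to -1.47.

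Limma called all 123 lower in every setting run except the fit without a replicate block (channels not paired), with 68. Over all loci, 4503 were called lower, against 6910 with uncentred scanner ratios, 7001 by the value table, 210 without the block, and 2883 to 3666 without 1 replicate (2883 without replicate 3). No median changed sign. The cause of these shifts was not tested. Signal over background limits the 51 loci under 500 in water, whose median was -0.87 with loess against -1.48.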
